A study of Mus musculus with 4 samples.

Results

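Primary granules are the first granules that neutrophil precursors build, and 6 genes of their contents and of an inhibitor of these were followed here through mouse bone marrow. Mpo encodes myeloperoxidase. Elane, Prtn3 and Ctsg encode the serine proteases neutrophil elastase, proteinase 3 and cathepsin G. Serpinb1a encodes a cytosolic inhibitor of these proteases, and Srgn encodes serglycin, the proteoglycan on which they are stored. The 6 genes were taken by symbol from the 31053 genes in the count files, each symbol matching 1 gene.

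The cells were bone marrow mononuclear cells (BMNCs) of C57BL/6 mice, flushed from femur and tibia and collected at the interface of a Ficoll gradient, a step that leaves out many mature neutrophils. Mice lacking Toll-like receptor 9 (TLR9-/-) were compared with wildtype (WT) mice, with no treatment named in the labels, in 2 experiments that each held 1 mouse of either genotype. Age and sex of these mice were not given in the sources used here, and mice of the 2 genotypes were bred in separate cages, so that cage and genotype cannot be told apart. There were 2 libraries per genotype, 1 per mouse, named here TLR9-/- 1, TLR9-/- 2, WT 1 and WT 2, and values are given in this order throughout. With 2 libraries per genotype, p-values measure only the spread between these libraries. The edgeR test used below takes part of that spread from all genes together.

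After filtering, 39167 cells remained, 8895 to 10781 per library, with 31210188 to 63958243 unique molecular identifiers (UMIs, counts of captured molecules) per library and a median of 1759 to 3618 UMIs per cell. Of Tlr9 itself, 41 and 48 UMIs were counted in TLR9-/- and 120 and 97 in WT libraries. Any pair of libraries shared 112 to 185 cell barcodes, 1.26 to 1.75% of the smaller library. No doublet caller was run. The rules of each gate set upper limits for markers of other lineages, and 0 cells met the rules of more than 1 gate. Because of these limits, that count does not show how many cells were mixed. Cells were sorted into 12 gates by summed UMIs of marker genes per 10000 UMIs of the cell, none of them a member, which placed 31163 cells (79.6%). The main gates were stem and multipotent progenitors (473 cells), granulocyte progenitors (1014 cells, marked by Fcnb, Cebpe, Gfi1, Ms4a3 and Gstm1), monocyte progenitors (627), monocytes (3127), immature neutrophils (3201), mature neutrophils (1846), B lymphocytes (15111) and T and NK lymphocytes (1433). A gate is a range of a score and not a cell type. Within 1.5 times above their thresholds lay 104 of the 473 stem and multipotent progenitors (22.0%), 201 of the 1014 granulocyte progenitors (19.8%) and 67 of the 627 monocyte progenitors (10.7%). Markers of the granulocyte progenitor gate summed to 32.9 UMIs per 10000 in that gate, 6.36 in monocyte progenitors and 1.70 in stem and multipotent progenitors.

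In the bone marrow, primary granules are made mainly at the promyelocyte stage, before the secondary granules that carry Camp, Ltf and Lcn2. Their proteases are synthesised as inactive precursors, folded in the endoplasmic reticulum, activated by the dipeptidyl peptidase cathepsin C (Ctsc) and held in the granule on the sulphated sugar chains of serglycin. Myeloperoxidase makes hypochlorous acid from hydrogen peroxide and chloride. The proteases cut bacterial and matrix proteins once released, and monocytes inherit smaller amounts of the same granule contents. The genes are transcribed under CEBPA, CEBPE, PU.1 (Spi1), MYB, RUNX1 and GFI1, factors that work together in early myeloid cells.

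On GRCm38, Prtn3 (ENSMUSG00000057729) lies on the plus strand at chr10:79874476-79883174. Elane (ENSMUSG00000020125) follows on the same strand at chr10:79886247-79888215, starting 3073 bases after the end of Prtn3. Mpo (ENSMUSG00000009350) lies on the plus strand at chr11:87793581-87804413. Ctsg (ENSMUSG00000040314) lies on the minus strand at chr14:56099881-56102574, Serpinb1a (ENSMUSG00000044734) on the minus strand at chr13:32842092-32851185, and Srgn (ENSMUSG00000020077) on the minus strand at chr10:62493833-62527451. Serpinb1a has the close copies Serpinb1b and Serpinb1c, so that reads could be split among them and its counts are uncertain in this respect.

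The 4 enzyme genes varied together between the gates, and the sequence just before their starts is shown for that reason. RefSeq (GRCm38.p6) gave starts for 5 of the 6 members, 6 starts in all, and none was given for Serpinb1a. The stretches below are written 5′ to 3′ on the strand of the gene. They cover the 250 bases before the RefSeq start as far as these lie outside the annotated exons of the gene, and the stretch of Prtn3 lies inside its longer annotated gene. Capitals mark matches to GAGGAA and GGAAGT, the purine-rich letters that PU.1 is known to bind, which overlap where they follow each other directly.
Mpo, chr11:87793534-87793580: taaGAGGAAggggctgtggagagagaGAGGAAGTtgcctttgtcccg
Elane, chr10:79886062-79886246: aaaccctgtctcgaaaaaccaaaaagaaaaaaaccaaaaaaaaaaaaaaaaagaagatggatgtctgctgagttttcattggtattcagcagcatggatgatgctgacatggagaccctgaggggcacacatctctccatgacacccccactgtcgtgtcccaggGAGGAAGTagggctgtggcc
Prtn3, chr10:79879417-79879613: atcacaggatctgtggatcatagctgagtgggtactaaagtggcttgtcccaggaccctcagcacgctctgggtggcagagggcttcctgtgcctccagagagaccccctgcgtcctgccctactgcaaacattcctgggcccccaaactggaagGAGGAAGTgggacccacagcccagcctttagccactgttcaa
Ctsg, chr14:56102575-56102824: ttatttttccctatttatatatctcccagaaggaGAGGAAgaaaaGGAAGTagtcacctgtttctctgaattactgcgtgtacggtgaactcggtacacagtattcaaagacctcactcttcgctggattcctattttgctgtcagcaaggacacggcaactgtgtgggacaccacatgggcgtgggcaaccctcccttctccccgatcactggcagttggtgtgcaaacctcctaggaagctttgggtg

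All 4 enzyme genes held both motifs on the coding strand. Counted back from the RefSeq start, GGAAGT began at base 222 in Mpo, 83 in Elane, 93 in Prtn3 and 205 in Ctsg. GAGGAA began at bases 247 and 224 in Mpo, 85 in Elane, 95 in Prtn3 and 216 in Ctsg. Searched on both strands of the same 250 bases in 32851 mouse promoters, GAGGAA was found in 23.3%, GGAAGT in 19.7% and both in 6.26%. Of the 6 member starts, 4 held GAGGAA, 5 held GGAAGT and 4 held both. The motifs were chosen after the sequences had been seen, a match is a description and not a binding site, and the motifs of RUNX1 (TGTGGT, 14.0% of promoters), MYB (AACNG, 74.2%) and C/EBP factors (TTNNGNAA, 36.8%) were found at 2, 6 and 1 of the 6 member starts.

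Myeloperoxidase RNA was highest in granulocyte progenitors in all 4 libraries. There Mpo had 84.5, 123, 77.7 and 91.3 UMIs per 10000 UMIs of the gate. Monocyte progenitors had 39.3, 54.0, 30.3 and 32.7, and stem and multipotent progenitors 12.1, 19.1, 12.0 and 7.20. The ranges of these 3 gates did not overlap. Immature neutrophils had 3.83, 14.7, 3.63 and 9.06, with both libraries numbered 2 above both numbered 1, and overlapped the stem and multipotent progenitors. Basophils and mast cells had 2.16 to 3.57, monocytes 1.22 to 1.99 and mature neutrophils 0.0658 to 0.691, the last overlapping B lymphocytes (0.166 to 0.390). In intermediate neutrophils, cells with both sets of neutrophil markers, Mpo was at 0 UMIs in TLR9-/- 1 and WT 1. All these levels are UMIs from the 5′ end of transcripts, which do not depend on transcript length, so they were not divided by it.

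Elastase was the most abundant member in granulocyte progenitors, with 239, 261, 251 and 267 UMIs per 10000. Monocyte progenitors followed with 53.9, 52.4, 53.2 and 66.0 and immature neutrophils with 20.96, 49.9, 25.5 and 45.4. Stem and multipotent progenitors had only 5.42, 3.05, 5.99 and 3.35, below their own Mpo level in every library, whereas granulocyte progenitors had more Elane than Mpo in every library. Monocytes kept 5.60 to 7.37 UMIs per 10000 of Elane, overlapping the stem and multipotent progenitors.

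Proteinase 3 had 187, 193, 166 and 171 UMIs per 10000 in granulocyte progenitors and 68.9, 71.0, 64.3 and 58.5 in monocyte progenitors. Stem and multipotent progenitors already had 17.3, 18.1, 16.3 and 10.99, the highest enzyme level of this gate in 3 of the 4 libraries, since Mpo was above it in TLR9-/- 2. Immature neutrophils had 16.0, 35.9, 17.3 and 26.3. Prtn3 was also the most abundant enzyme of monocytes, with 13.8, 9.55, 13.05 and 11.7. The levels of stem and multipotent progenitors overlapped those of immature neutrophils and those of monocytes.

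Cathepsin G had 57.3, 79.7, 53.4 and 65.0 UMIs per 10000 in granulocyte progenitors, 20.1, 27.1, 17.6 and 20.5 in monocyte progenitors and 6.93, 11.6, 9.34 and 4.71 in stem and multipotent progenitors. It differed from the other enzymes in basophils and mast cells, where it had 19.1, 12.4, 17.6 and 16.1, overlapping the monocyte progenitors, while Mpo was between 2.16 and 3.57. In immature neutrophils it had 1.64, 7.17, 1.26 and 4.29.

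The inhibitor Serpinb1a followed another course. Its highest level was in immature neutrophils, with 7.22, 8.86, 8.20 and 7.89 UMIs per 10000, above granulocyte progenitors in each library (5.19, 6.91, 6.82 and 7.03). Intermediate neutrophils still had 3.71 to 4.77, and mature neutrophils had 0.434, 1.22, 0.987 and 0.829. Stem and multipotent progenitors (1.32 to 2.15) and monocyte progenitors (1.08 to 1.64) overlapped each other.

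Serglycin was spread most widely. Srgn had 39.5, 45.7, 41.5 and 49.2 UMIs per 10000 in granulocyte progenitors, 26.0, 26.0, 23.7 and 23.8 in basophils and mast cells and 18.7, 14.2, 11.2 and 20.2 in mature neutrophils. Stem and multipotent progenitors had 11.02 to 12.96 and monocyte progenitors 8.14 to 9.71. Immature neutrophils had 2.83, 6.10, 2.95 and 5.97, below the mature neutrophils of every library. B lymphocytes (5.55 to 6.596) and T and NK lymphocytes (5.87 to 7.35) overlapped, and both are cells known to hold serglycin. Erythroid cells, at 0.560 to 0.844, were lowest.

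**Figure D1:**
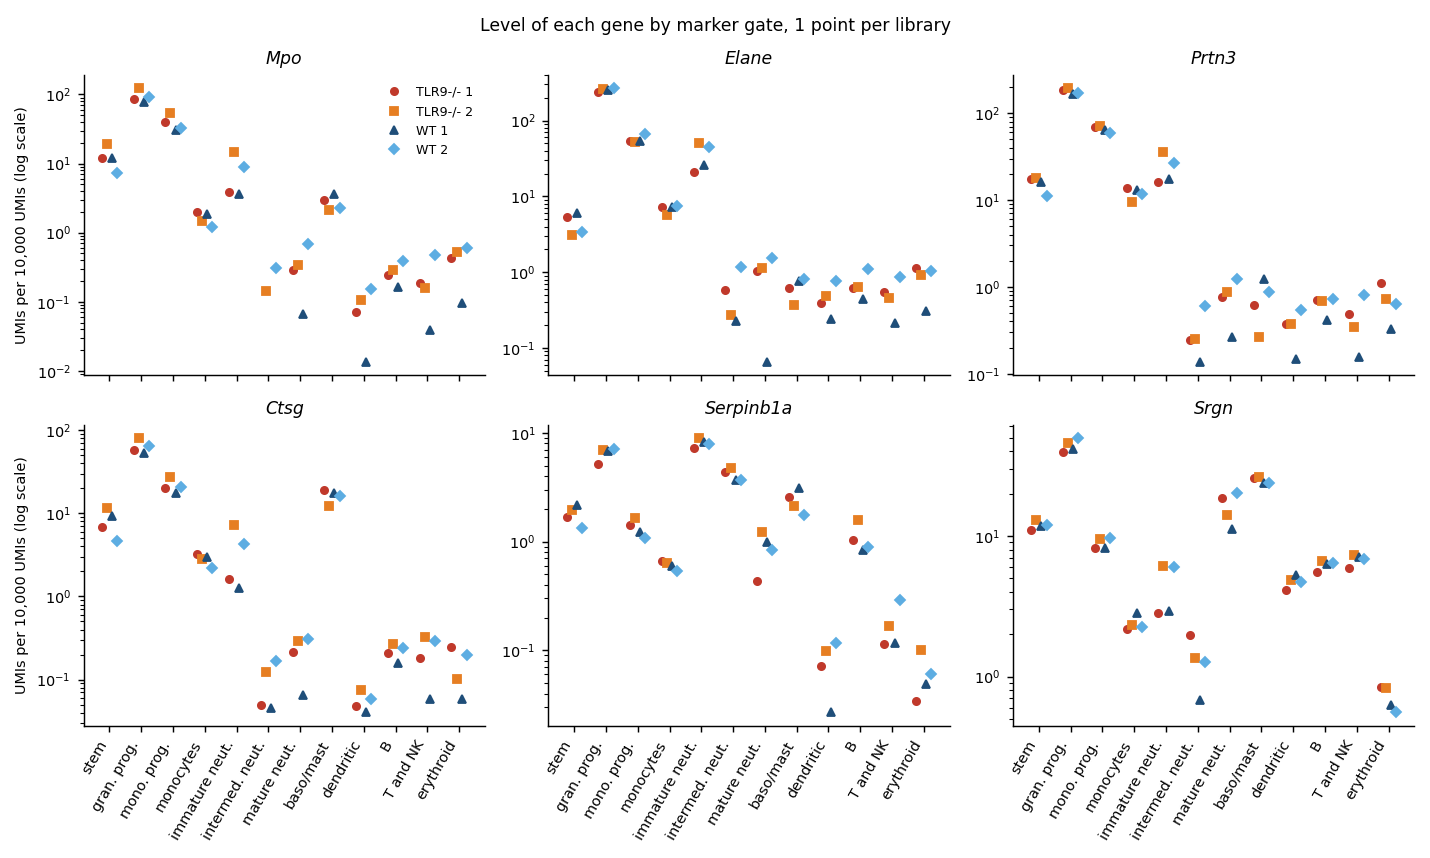
Level of each of the 6 genes by gate, in UMIs per 10000 UMIs of the gate on a log axis, with 1 point per library (red circles TLR9-/- 1, orange squares TLR9-/- 2, dark blue triangles WT 1, light blue diamonds WT 2). Levels of 0 are not drawn (Mpo in intermediate neutrophils of TLR9-/- 1 and WT 1). The 4 enzymes peak in granulocyte progenitors, Serpinb1a in immature neutrophils, and Srgn stays above 5 in both lymphocyte gates.

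Together the 6 genes took 5.96 to 7.09% of all UMIs in granulocyte progenitors, 1.75 to 2.16% in monocyte progenitors, 0.395 to 0.667% in stem and multipotent progenitors and 0.525 to 1.23% in immature neutrophils. In mature neutrophils they took 0.126 to 0.248%, and the 4 enzymes alone 0.00461 to 0.0379%. Over all cells the 6 genes took 0.683 to 1.82%.

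Cells that carried at least 1 UMI of a member were counted after each cell had been thinned to 1000 UMIs, leaving out shallower cells (0 of the stem and multipotent progenitors, 0 to 2 monocyte progenitors, 3 to 9 granulocyte progenitors and 148 to 1972 B lymphocytes per library). For Mpo they were 97.97, 98.2, 99.0 and 98.5% of granulocyte progenitors, 66.5, 59.7, 47.6 and 45.3% of monocyte progenitors and 33.9, 42.7, 30.5 and 24.9% of stem and multipotent progenitors. In B lymphocytes, which are not known to express Mpo, the share was 1.67, 2.59, 0.733 and 3.09%, with a median of 1208 to 1761 UMIs per cell before thinning against 4850.5 to 8474 in stem and multipotent progenitors. The progenitor shares were thus above the lymphocyte share in every library. Elane was found in 8.05 to 11.8% of stem and multipotent progenitors and Prtn3 in 50.4 to 56.3%.

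Granulocyte progenitors and immature neutrophils were also ordered along the secondary granule genes, by the summed level of Camp, Ngp, Ltf, Lcn2 and Cd177 per 10000 UMIs. Bins under 300 held the granulocyte progenitor gate and bins above it the immature neutrophil gate. The step at 300 is thus also a change of gate rules, and their part in it was not tested. Mpo had 85.7, 125, 84.5 and 94.2 UMIs per 10000 in cells under 3 of these marker UMIs and 83.4, 133, 82.4 and 103 in cells between 3 and 30. Between 30 and 300 it had 76.4, 103, 37.8 and 69.6, where WT 1 had only 17 cells. Between 300 and 1000 it had 13.1, 36.4, 11.1 and 24.6, and above 1000 it had 0.626, 1.29, 0.599 and 1.60.

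Elane and Prtn3 were highest after the first bin of this series, whereas Ctsg was highest in the first bin in 3 of the 4 libraries. Elane had 227, 245, 257 and 252 UMIs per 10000 in the lowest bin, 287, 342, 296 and 311 in the next, 288, 279, 177 and 271 in the third, 60.4, 113, 66.2 and 110 in the fourth and 7.31, 10.9, 8.97 and 14.6 in the last. It was higher in the second bin than in the first in all 4 libraries. Ctsg had 59.8, 84.0, 59.98 and 74.1 in the first bin, 57.8, 87.8, 49.8 and 63.7 in the second, 36.8, 48.3, 23.3 and 36.5 in the third and 0.256 to 0.505 in the last, and was higher in the second bin only in TLR9-/- 2. Prtn3 was also higher in the second bin than in the first in all 4 libraries, at 184 to 243 against 168 to 187.

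Over these 5 bins, Serpinb1a did not end below its start. It had 4.59, 5.78, 6.33 and 5.58 UMIs per 10000 in the first bin, 7.01, 9.47, 8.38 and 9.13 in the second and 7.49, 8.95, 8.47 and 7.81 in the last. Srgn had 38.7, 45.2, 43.3 and 49.1 in the first bin, 46.0, 56.3, 45.4 and 57.2 in the second and 0.900 to 1.31 in the last, below its level in both lymphocyte gates. These bins are descriptions, and no test was run between them.

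**Figure D2:**
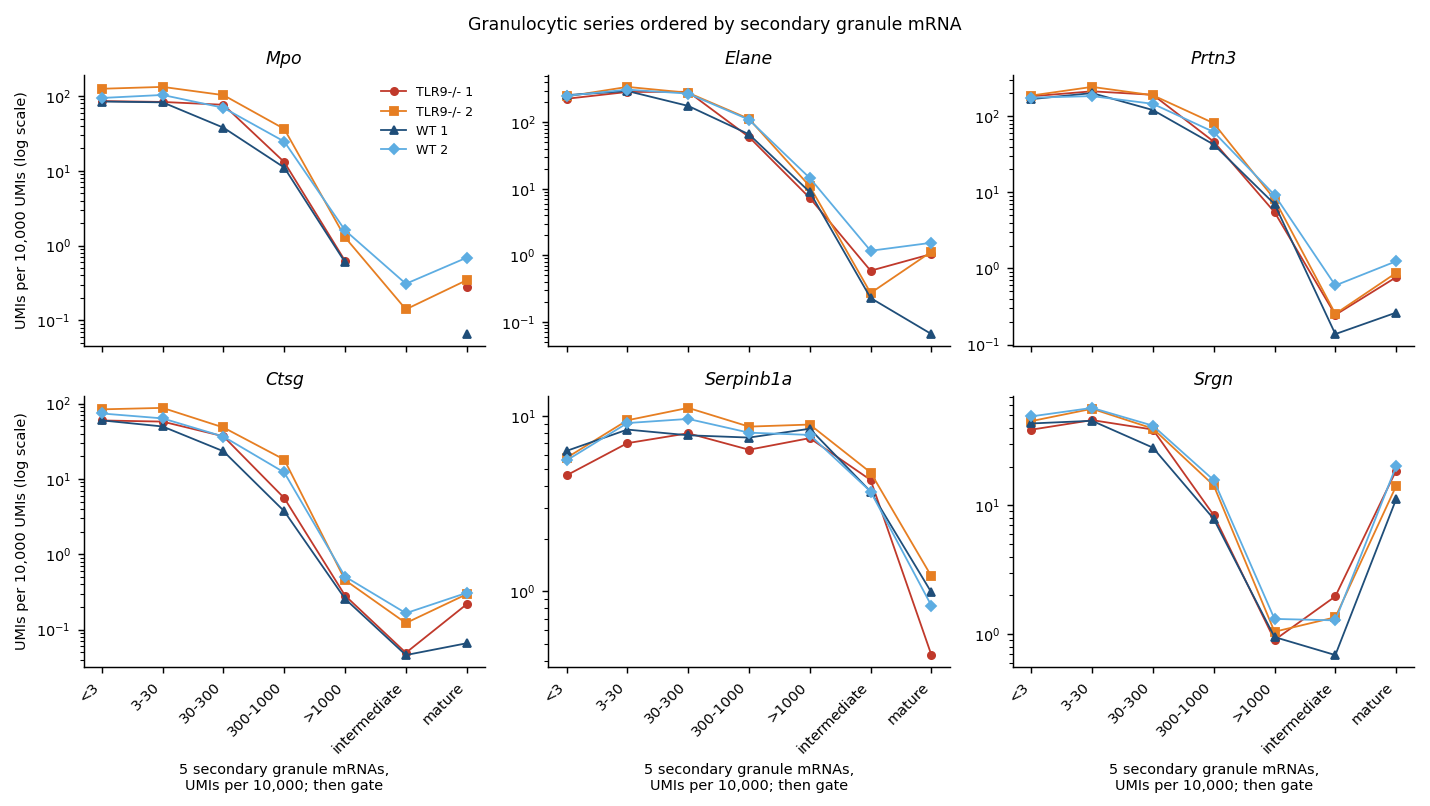
Level of each gene, in UMIs per 10000 on a log axis, along 5 bins of summed secondary granule markers (UMIs per 10000 of the cell) over granulocyte progenitors and immature neutrophils. The intermediate and mature neutrophil gates follow these bins. Each library has 1 line, in the colours and symbols of the plot of levels by gate, and levels of 0 are not drawn. In the last of the 5 bins the 4 enzymes and Srgn lie far below their first bin. Serpinb1a lies there at 7.49 to 8.95, above its first bin in every library. In mature neutrophils Serpinb1a is at 0.434 to 1.22, below its first bin in every library, and Srgn at 11.2 to 20.2.

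Most enzyme UMIs of the marrow came from few cells. Granulocyte progenitors were 1.19 to 3.98% of the cells of a library, yet held 45.8 to 59.7% of all Mpo UMIs, 49.8 to 59.8% of Elane, 41.7 to 54.8% of Prtn3 and 44.5 to 62.1% of Ctsg. Their cells were also deep, with a median of 12272.5 to 24977 UMIs per cell against 1759 to 3618 over all cells. Their share of UMIs of any kind was therefore above their share of cells. Monocyte progenitors held 5.69 to 12.8% of the Mpo UMIs. Serpinb1a UMIs came mainly from immature neutrophils (34.4 to 51.7%) and granulocyte progenitors (19.6 to 30.2%). Of the Srgn UMIs, granulocyte progenitors held 26.8 to 49.96% and B lymphocytes 5.18 to 28.3%. Cells in no gate held 19.8 to 39.7% of the Mpo UMIs. Of these, 57.9, 45.3, 41.4 and 50.7% were in cells with 5 to 15 granulocyte progenitor marker UMIs per 10000, below the threshold of 15. A further 23.9, 43.2, 33.3 and 25.9% were in cells that passed it but also had monocyte progenitor markers.

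**Figure D3:**
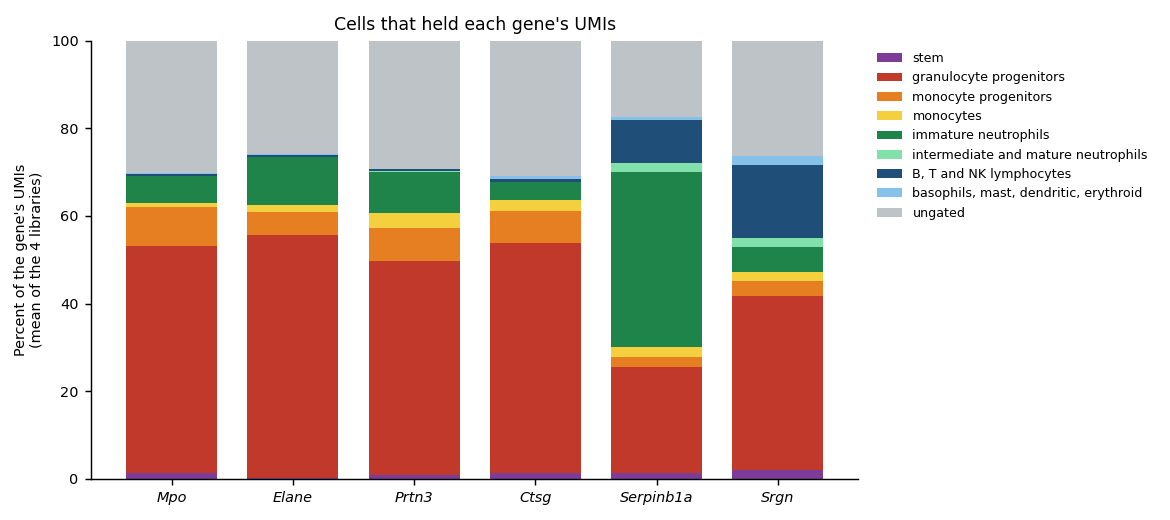
Share of each gene's UMIs held by each gate, in percent of all UMIs of the gene, as stacked bars of the mean over the 4 libraries. Granulocyte progenitors hold a mean of 51.7% of the Mpo UMIs and cells in no gate 30.2%, whereas immature neutrophils hold the largest share of Serpinb1a.

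Differences between gates were tested on UMIs summed per library and gate with edgeR's quasi-likelihood test (2-sided, libraries as blocks, Benjamini-Hochberg adjustment over all genes tested), at an adjusted p under 0.05. Fold changes are on the log2 scale of CPM, counts scaled to equal library totals after TMM scaling. That scaling raised the fold changes between granulocyte and stem and multipotent progenitors by 0.35 against those on UMIs per 10000, and those between immature neutrophils and granulocyte progenitors by 0.68, whereas the other 4 comparisons moved by −0.07 to 0.18. No member changed direction between these scales in any library.

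All 6 members were higher in granulocyte progenitors than in stem and multipotent progenitors, a direction that held for 23.1% of the 8283 genes tested, while 23.3% were lower. Elane had the largest difference, at a log2 fold change of 6.11 (standard error, SE, 0.13, adjusted p = 6.28e-18, 5.71 to 6.77 over the libraries). Prtn3 rose by 3.74 (SE 0.08, adjusted p = 1.8e-18), Ctsg by 3.23 (SE 0.12, adjusted p = 2.78e-14) and Mpo by 3.16 (SE 0.11, adjusted p = 4.91e-15). The accessory members rose less, Srgn by 2.09 (SE 0.06) and Serpinb1a by 2.07 (SE 0.09). Every library showed each of these directions.

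Monocyte progenitors differed from stem and multipotent progenitors in the same direction for the 4 enzymes. Elane rose by 3.75 on the log2 scale (SE 0.12), Prtn3 by 2.12 (0.06), Mpo by 1.71 (0.08) and Ctsg by 1.47 (0.10), 4 members against 19.2% of the 7769 genes tested. The 2 accessory members were lower, as were 20.7% of the genes tested, Srgn by −0.39 (SE 0.06, adjusted p = 1.55e-05) and Serpinb1a by −0.30 (SE 0.09, adjusted p = 0.0123). The Serpinb1a call was lost without WT 1 (−0.18, adjusted p = 0.120).

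Set directly against monocyte progenitors, granulocyte progenitors had more of all 6 members (21.1% of 9531 genes were higher and 21.4% lower). The log2 fold change was 2.44 for Srgn, 2.32 for Serpinb1a and for Elane, 1.72 for Ctsg, 1.59 for Prtn3 and 1.42 for Mpo, with SEs of 0.04 to 0.08 and the same direction in 4 of 4 libraries. Myeloperoxidase thus had the smallest of the 6 fold changes between these gates. The gates set upper limits for markers of other lineages, and cells with both marker sets were left ungated. The granulocyte progenitor markers Ms4a3 and Gstm1 were among the genes most like Mpo and Ctsg. How far the gate limits set the sizes of these fold changes was not tested.

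From granulocyte progenitors to immature neutrophils the enzymes and the inhibitor parted. Serpinb1a rose by 0.99 on the log2 scale of CPM (SE 0.08, adjusted p = 1.63e-09), where 38.8% of 9728 genes rose, and by 0.17 to 0.48 over the libraries on UMIs per 10000. The other 5 members fell, with 35.0% of the genes. Ctsg had the largest decrease, with a log2 fold change of −3.77 (SE 0.19), followed by Mpo at −3.14 (0.15), Srgn at −2.71 (0.11), Prtn3 at −2.31 (0.12) and Elane at −2.26 (0.13).

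From immature to mature neutrophils Srgn rose by 1.91 (SE 0.21, adjusted p = 5.65e-09), where 30.1% of 7054 genes rose. The other 5 members fell, with 35.1% of the genes, from −5.06 for Elane through −4.79 for Prtn3, −4.30 for Mpo and −3.81 for Ctsg to −3.23 for Serpinb1a. In mature neutrophils the level of each enzyme overlapped that of B lymphocytes, and Mpo, Elane and Ctsg rested on 1 UMI each in WT 1. The order of these fold changes is therefore uncertain. The Srgn call was lost when only cells with at least 2000 UMIs were kept (0.39, adjusted p = 0.604), and the median depth of mature neutrophils was 799 to 1582 UMIs per cell. That setting left only 19, 156, 5 and 46 mature neutrophils of 617, 529, 161 and 539, so the lost call rests on few, unusually deep cells.

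Monocytes had less of all 6 members than monocyte progenitors, as had 26.8% of 9280 genes, while 28.4% were higher. Mpo fell most, by 4.56 on the log2 scale (SE 0.11, adjusted p = 2.34e-18), Elane by 3.02, Ctsg by 2.90, Prtn3 by 2.44, Srgn by 1.89 and Serpinb1a by 1.14, each in 4 of 4 libraries.

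The gates were then asked for other genes of the pathway, in lists that cover further contents of primary granules, protein folding and activation, protease inhibitors, synthesis of the sugar chains of serglycin, and transcription factors, 46 genes in all. Cebpe, Gfi1 and Irf8 are gate markers, so their differences between gates are not results. The locus neighbours Cfd and Gzmb were not testable in progenitors or neutrophils.

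Granule contents mostly rose with the enzymes at the first step. From stem and multipotent to granulocyte progenitors 8 of the 9 tested were higher and 0 lower, with a median log2 fold change of 0.66 against −0.02 over all genes tested. Prss57, a further granule serine protease, rose by 3.65 and the lysosomal sulphatase Arsb by 2.57. Between granulocyte and monocyte progenitors the list was divided, with 4 of 9 higher and 3 lower (median −0.09). Cd63, a granule membrane protein, was higher in granulocyte progenitors by 4.79 and Prss57 by 3.28, while lysozyme (Lyz2) was lower by −2.54. Lyz2 then rose by 5.33 in immature neutrophils, opposite to the 4 enzymes. Against the monocyte progenitors, monocytes had less Prss57 (−4.64) and more Lyz2 (2.82).

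Folding genes of the endoplasmic reticulum, the place of enzyme synthesis, were higher with the enzymes. In granulocyte against stem and multipotent progenitors 6 of 7 rose and 0 fell (median 1.36), with Hspa5, the chaperone BiP, at 1.84 and the disulphide isomerase Pdia6 at 1.58. In immature neutrophils 6 of 7 fell and 0 rose (median −1.29, against 0.06 over all genes tested), calreticulin (Calr), a chaperone of myeloperoxidase, by 2.73 and Pdia6 by 2.29. In mature against immature neutrophils 6 of 7 fell again (median −1.26, against −0.15 over all genes tested). Ctsc, which activates the proteases, did not always follow the others. In monocyte against stem and multipotent progenitors all 7 genes of the list rose, Ctsc by 1.85. Ctsc was lower in granulocyte than in monocyte progenitors (−2.02), where the other 6 genes of its list were higher. It rose by 1.43 in monocytes against monocyte progenitors, where the other 6 fell.

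Among the other inhibitors, 3 of 7 or fewer could be tested in any of these comparisons between gates. Slpi, a secreted inhibitor of elastase and cathepsin G, rose by 2.85 from stem and multipotent to granulocyte progenitors, by 1.03 into immature neutrophils and by 3.63 into mature neutrophils, where Serpinb1a fell. Serpinb6a, an inhibitor of cathepsin G, rose by 2.38 in immature neutrophils, and Serpina3g fell by 3.22 in granulocyte against stem and multipotent progenitors. Of the 12 genes that build the sugar chains of serglycin, 5 of 8 tested rose and 0 fell in granulocyte against stem and multipotent progenitors (median 0.78). Among them the sulphotransferase Chst12 rose by 1.499 and Csgalnact2, which starts chondroitin chains, by 1.02. In immature neutrophils 3 of 9 rose and 1 fell (median 0.12), where 38.8% of all genes tested rose and 35.0% fell, with Chst15, which adds a further sulphate, at 2.14. In mature neutrophils 4 of 8 rose and 1 fell (median 0.53), where 30.1% of all genes rose and 35.1% fell. The chain-starting xylosyltransferase Xylt1 was at 2.41 and B3galt6, the 1 that fell, at −3.10.

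Of the transcription factors that mark no gate, Runx1 fell by 1.09 from stem and multipotent to granulocyte progenitors. Myb fell by 2.10 and Cebpa by 1.93 from granulocyte progenitors to immature neutrophils, and Spi1 rose by 1.11 from immature to mature neutrophils. In monocyte against stem and multipotent progenitors Spi1 rose by 0.96 and Myb fell by 1.05.

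Between the genotypes, none of the 6 members passed the test within any of 8 gates at an adjusted p under 0.05 (edgeR, 2 libraries against 2, no block, all 6 tested in each gate). The share of all genes called was 0.0663% in stem and multipotent progenitors, 0.267% in granulocyte progenitors, 0.172% in monocyte progenitors, 0.316% in monocytes, 0.384% in immature neutrophils, 0.048% in mature neutrophils, 0.234% in B lymphocytes and 0.196% in T and NK lymphocytes. At an unadjusted p under 0.05, 1 member passed in stem and multipotent progenitors, 2 in monocyte progenitors, 1 in B lymphocytes and 0 in the other 5 gates. Of all genes tested, 7.59%, 9.66% and 5.79% did so in these 3 gates, respectively. DESeq2 also called 0 members in each of the 8 gates, and edgeR without a filter on low counts called 1, Mpo in stem and multipotent progenitors (0.75, adjusted p = 0.0440), with 0.406% of genes called in that fit. With the replicate number as a block, edgeR called Mpo in monocyte progenitors and Ctsg in immature neutrophils. The share of all genes called in the block fits is not given here, so these calls cannot be set against it. The labels do not say that the replicate numbers mark the experiments. In simulated data with the same depths, the test recovered 99% of 4-fold and 56% of 2-fold changes in granulocyte progenitors and 95% and 30% in stem and multipotent progenitors, so that smaller differences were often not detectable. These simulations held 9720 and 7536 genes, and 5 and 8 calls in them were false. Each fold was given to 100 genes, whereas 26 and 5 genes were called in the data of these gates. The adjustment is more lenient where more genes differ, so recovery in the data may have been lower.

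Mpo had the largest difference within the progenitor gates. In stem and multipotent progenitors it was 12.1 and 19.1 UMIs per 10000 in TLR9-/- but 12.0 and 7.20 in WT libraries, so that the genotypes did not overlap but TLR9-/- 1 and WT 1 were almost level. The log2 fold change was 0.67 (SE 0.27, adjusted p = 0.628 by edgeR). Granulocyte progenitor markers in this gate summed to 2.07, 1.67, 1.17 and 1.23 UMIs per 10000, likewise higher in both TLR9-/- libraries, and their part in the difference was not tested. Immature neutrophil markers there summed to 0.730, 3.14, 0.326 and 19.5, highest in WT 2. In monocyte progenitors Mpo was 39.3 and 54.0 against 30.3 and 32.7, without overlap, with a log2 fold change of 0.54 (SE 0.20, adjusted p = 0.432 by edgeR). Granulocyte progenitor markers summed to 6.29, 6.76, 4.91 and 5.76 in that gate, again higher in both TLR9-/- libraries, and their part was not tested. In granulocyte progenitors Mpo overlapped, with a log2 fold change of 0.26 (SE 0.20, adjusted p = 0.732 by edgeR).

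The share of cells with an Mpo UMI after thinning was 38.3% ± 6.18 in TLR9-/- and 27.7% ± 3.95 in WT stem and multipotent progenitors (SD, n = 2 libraries per genotype), and 63.1% ± 4.75 against 46.5% ± 1.60 in monocyte progenitors. Unthinned, the shares were 64.6% against 50.6% and 71.4% against 54.6%. Median depth before thinning was 6270 and 8474 UMIs per cell in TLR9-/- against 4859 and 4850.5 in WT stem and multipotent progenitors. In monocyte progenitors it was 12902 and 16058.5 against 7969 and 8971.5. Depth and genotype therefore cannot be told apart in the unthinned shares. An exact permutation test (2-sided) of the thinned shares gave p = 0.3333 in each gate, the smallest that 2 libraries against 2 allow.

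The other members had smaller fold changes in granulocyte progenitors than Mpo had in stem and multipotent progenitors. Elane was nearly level, with 249.9 ± 15.1 UMIs per 10000 in TLR9-/- and 258.9 ± 10.8 in WT granulocyte progenitors (SD, n = 2), a log2 fold change of −0.09 (SE 0.16, adjusted p = 0.886 by edgeR). Prtn3 was higher in TLR9-/- without overlap in all 3 progenitor gates, with log2 fold changes of 0.34, 0.14 and 0.16 in stem and multipotent, granulocyte and monocyte progenitors that did not pass the test (adjusted p = 0.709, 0.804 and 0.837 by edgeR). Of the 6 members, the genotypes did not overlap for 2, 1 and 3 in these gates, as they did not for 39.8%, 40.7% and 41.6% of all genes tested there. Ctsg in immature neutrophils had the largest fold change of that gate at 0.63 (SE 0.55, adjusted p = 0.994 by edgeR), with 1.64 and 7.17 against 1.26 and 4.29 UMIs per 10000, where the libraries of 1 genotype differed more than the genotypes. Its log2 fold change was 1.29 (adjusted p = 0.0132 by edgeR) without TLR9-/- 1, 1.64 (adjusted p = 0.00571) without WT 2 and −0.62 without TLR9-/- 2. Leaving out a library leaves its genotype with 1, which is then assumed to vary like the other group. In B lymphocytes Serpinb1a had 1.04 and 1.58 against 0.844 and 0.892, without overlap, with a difference of 0.57 on the log2 scale (SE 0.23, adjusted p = 0.854 by edgeR). On CPM, Srgn did not overlap in this gate either, with a log2 fold change of −0.10, nor did 34.8% of the 11559 genes tested.

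**Figure D4:**
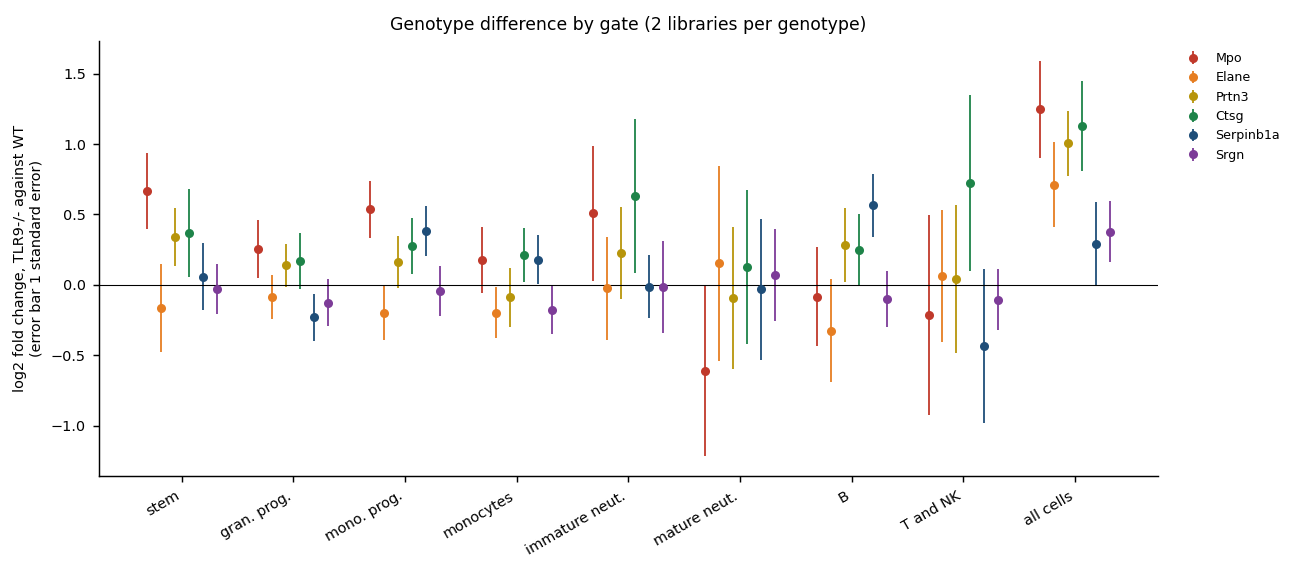
Log2 fold change of TLR9-/- over WT for each of the 6 genes in 8 gates and over all cells, from edgeR on CPM, with bars of 1 standard error and a colour per gene. Within the progenitor gates the values lie between −0.23 and 0.67, and over all cells between 0.29 and 1.25. None passed the test in this fit, with 2 libraries per genotype and no block.

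Over all cells of a library, the mean level of each member was higher in TLR9-/- marrow, without passing the edgeR test fitted with no block. In such sums, more cells of a type and more RNA per cell cannot be told apart. Mpo had 17.8 and 31.7 UMIs per 10000 in TLR9-/- against 8.34 and 12.5 in WT libraries, a log2 fold change of 1.25 (SE 0.35, adjusted p = 0.191 by edgeR). Ctsg had 11.7 and 19.99 against 5.96 and 8.52 (1.13, SE 0.32, adjusted p = 0.195), Prtn3 38.9 and 51.9 against 19.7 and 25.4 (1.00, SE 0.23, adjusted p = 0.157) and Elane 41.5 and 62.1 against 24.97 and 38.1 (0.71, SE 0.30, adjusted p = 0.312). These 4 enzymes did not overlap between the genotypes, as 50.9% of all genes tested over all cells did not, and Srgn (0.38) and Serpinb1a (0.29) did.

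Called by edgeR over all cells were 0 of the 6 members, with 0.268% of 14194 genes called, and 3 of the 6 had an unadjusted p under 0.05, as did 17.1% of the genes. DESeq2 called 3 members there, Mpo, Prtn3 and Ctsg, but also 6.50% of 13093 genes, and edgeR without a filter on low counts called the same 3 and 2.98% of 20307 genes. With the replicate number as a block, which the labels do not tie to an experiment, edgeR called the 4 enzymes. The share of all genes called in that fit is not given here, so whether the enzymes stand out is not known. Granulocyte progenitors made up 3.11 and 3.98% of cells in TLR9-/- against 1.19 and 2.23% in WT libraries, and monocyte progenitors 2.16 and 2.74% against 0.662 and 0.899%. The 4 enzymes had log2 fold changes of −0.09 to 0.26 within the granulocyte progenitor gate, which held the largest share of their UMIs. In stem and multipotent progenitors these were −0.16 (Elane) to 0.67 (Mpo), and in monocyte progenitors −0.20 (Elane) to 0.54 (Mpo). Cells in no gate were not compared between the genotypes. The part of cell shares in the difference over all cells was not tested.

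Of the pathway lists, 0 genes differed by genotype in stem and multipotent, granulocyte and monocyte progenitors, in either neutrophil gate, in B lymphocytes or over all cells. Arsb was higher in TLR9-/- monocytes by 2.16 (SE 0.17, adjusted p = 0.000836 by edgeR) and Lyz2 in TLR9-/- T and NK lymphocytes by 2.45 (SE 0.35, adjusted p = 0.0169 by edgeR). Monocyte markers summed to 13.8 UMIs per 10000 in the T and NK gate against 2.97 in B lymphocytes. The monocyte progenitor markers, which share Ccr2, F13a1, Csf1r, Ms4a6c and Klf4 with these, summed to 4.03 against 5.26. Most of the 13.8 thus came from Ly6c2 and Fn1, the monocyte markers outside that set, and its cell source was not tested. Monocytes were 10.6 and 10.3% of cells in TLR9-/- against 5.91 and 4.95% in WT libraries. The part of monocyte RNA in the Lyz2 difference was not tested.

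Whether the genotype difference itself changed from gate to gate was tested as an interaction. Between granulocyte and stem and multipotent progenitors 0 of 6 members passed (0.444% of 9233 genes did). Mpo came nearest, its TLR9-/- difference being smaller in granulocyte progenitors by −0.43 on the log2 scale (SE 0.13, adjusted p = 0.148 by edgeR). DESeq2 also called 0, and 3 members had an unadjusted p under 0.05, as did 7.13% of the genes. Without WT 1, 4 of the 6 members passed, with Mpo at −0.96, and 0.765% of 10454 genes were called in that fit.

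Between granulocyte and monocyte progenitors 1 of 6 members passed, Serpinb1a, against 0.295% of 10179 genes. In granulocyte progenitors Serpinb1a had 5.19 and 6.91 UMIs per 10000 in TLR9-/- and 6.82 and 7.03 in WT libraries. In monocyte progenitors it had 1.42 and 1.64 against 1.22 and 1.08. The interaction was −0.63 (SE 0.15, adjusted p = 0.00801 by edgeR), from a log2 fold change of −0.23 in the first gate and 0.38 in the second, neither of which passed by itself. The call was lost with DESeq2 (−0.62, adjusted p = 1.00), with stricter gates (−0.91, adjusted p = 0.368), without TLR9-/- 1 (−0.57, adjusted p = 0.275 by edgeR) and without WT 2 (−0.50, adjusted p = 0.604 by edgeR). Of the pathway lists, Lyz2 (−0.98, adjusted p = 2.95e-16) and Arsb (−1.14, adjusted p = 1.46e-05, both by edgeR) also passed in this comparison. No gene of these lists was called by genotype within either gate. The p-values of this interaction rest largely on a spread shared among genes, and less on each gene's own spread between libraries.

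In lymphocytes, which are not known to make these enzymes, their RNA was low but present. Mpo had 0.247, 0.285, 0.166 and 0.390 UMIs per 10000 in B lymphocytes, resting on 202, 186, 177 and 443 UMIs, and 0.187, 0.157, 0.0390 and 0.474 in T and NK lymphocytes, resting on 28, 15, 2 and 13. Elane had 0.617, 0.633, 0.438 and 1.11 in B lymphocytes and 0.547, 0.462, 0.214 and 0.875 in T and NK lymphocytes. In both gates WT 1 was lowest and WT 2 highest for both genes.

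The proportion of Elane to Mpo in B lymphocytes lay near that of granulocyte progenitors, while those of Prtn3 and Ctsg were higher except in WT 2. There were 2.5, 2.23, 2.64 and 2.85 Elane UMIs per Mpo UMI in B lymphocytes and 2.83, 2.12, 3.24 and 2.92 in granulocyte progenitors. For Prtn3 the ratio was 2.88, 2.40, 2.47 and 1.85 against 2.21, 1.57, 2.13 and 1.87. For Ctsg it was 0.842, 0.946, 0.944 and 0.612 against 0.678, 0.648, 0.688 and 0.711. Counts were small elsewhere. T and NK lymphocytes had 27, 31, 3 and 8 Ctsg UMIs beside 28, 15, 2 and 13 of Mpo. Erythroid cells had 29, 4, 14 and 13 beside 51, 21, 23 and 40.

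Serpinb1a and Srgn did not keep these proportions. B lymphocytes had 4.20, 5.55, 5.08 and 2.29 Serpinb1a UMIs per Mpo UMI, where granulocyte progenitors had 0.0562 to 0.0878. Serpinb1a stood at 1.04, 1.58, 0.844 and 0.892 UMIs per 10000 in B lymphocytes and at 0.113 to 0.292 in T and NK lymphocytes, without overlap, and after thinning 6.99 to 17.6% of B lymphocytes and 0.63 to 2.60% of T and NK lymphocytes had a UMI of it. B lymphocytes had 16.6 to 38.2 Srgn UMIs per Mpo UMI, against 0.371 to 0.539 in granulocyte progenitors, and after thinning 42.1 to 48.7% of them had an Srgn UMI.

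**Figure D5:**
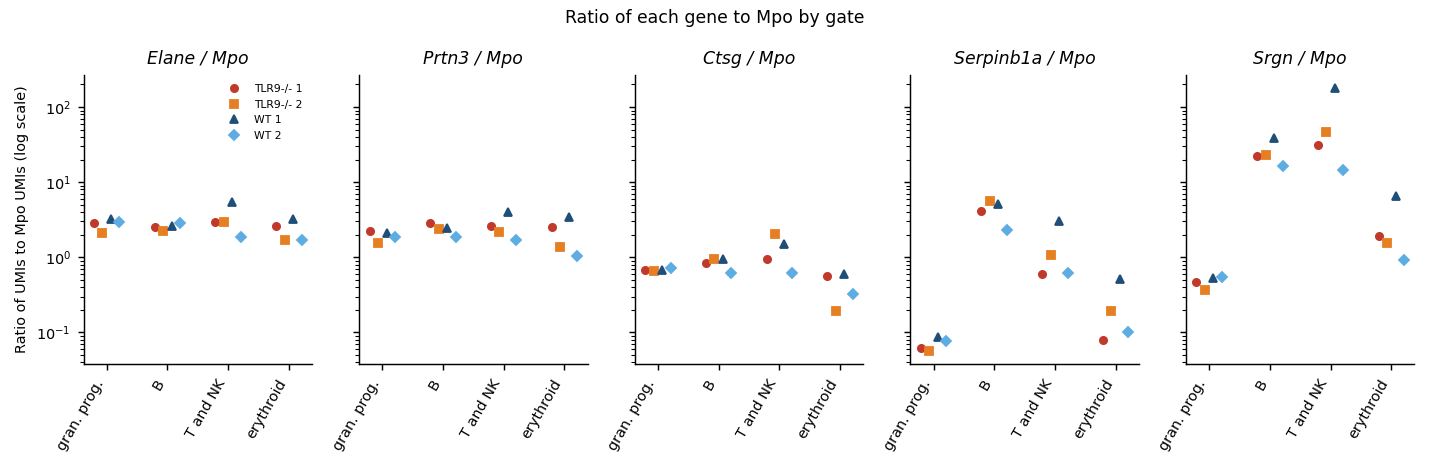
UMIs of each gene per Mpo UMI on a log axis, by gate, with 1 point per library in the colours and symbols of the plot of levels by gate. Elane keeps a similar ratio in granulocyte progenitors and B lymphocytes, and Prtn3 and Ctsg lie higher in B lymphocytes except in WT 2. Serpinb1a lies at 0.0562 to 0.0878 in granulocyte progenitors and 2.29 to 5.55 in B lymphocytes, and Srgn at 0.371 to 0.539 and 16.6 to 38.2.

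Single cells were compared within gates as a description, since cells of a library share depth and source. In granulocyte progenitors Spearman's rho between Elane and Prtn3, neighbours on chromosome 10, was 0.68 to 0.82 over the libraries, between Mpo and Ctsg 0.51 to 0.63 and between Ctsg and Serpinb1a 0.12 to 0.31. In monocyte progenitors it was 0.85 to 0.93 between Mpo and Elane. In stem and multipotent progenitors it was 0.74 to 0.84 between Mpo and Ctsg but −0.09 to 0.12 between Mpo and Srgn.

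Over the 48 sums of 12 gates and 4 libraries, Pearson's r of log2(CPM + 1) was 0.97 between Elane and Prtn3 and 0.94 between Mpo and Ctsg, but 0.37 between Elane and Srgn. The points share libraries and depth, and no test was run. Among 5132 further genes, the pattern most like Elane was that of Dmkn (r = 0.94), then Gatm (0.91) and Gm11505 (0.90), and the same 3 genes led for Prtn3 (0.93, 0.91 and 0.91). Mpo was most like the gate markers Ms4a3 (0.92) and Gstm1 (0.88) and like Igfbp4 (0.88), and Ctsg like Gstm1 (0.94), Ms4a3 (0.91) and Mfsd13a (0.88). Serpinb1a had Gm1604a (0.87), Hacd2 (0.85) and Ffar2 (0.83) as nearest genes. Srgn had no gene above D16Ertd472e (0.81), followed by Vat1 (0.79) and Dtnbp1 (0.76).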

How the data were processed

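The deposited files hold raw UMI counts per gene and cell barcode of 4 libraries, made by the authors with Cell Ranger (3.0.1 in the matrix header) and STAR on mm10; the features are Ensembl identifiers with symbols, and GENCODE M21 supplied coordinates here. The barcode and feature names are the other deposited columns. The authors clustered with Seurat 2.3.4, whose annotation was not used here. Cells with 200 to 10000 genes and at most 10% mitochondrial UMIs were kept, as in the authors' methods; the mitochondrial limit is printed there as 0.10% and was read as a fraction. This kept 39167 cells, more than the study states, and the step behind the difference is not given in the sources used here.

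Cells were gated on marker UMIs per 10000 (at least 6 for stem and multipotent progenitors, 15 for granulocyte progenitors, 10 for monocyte progenitors, 40 for monocytes, 300 for immature and 100 for mature neutrophils, 20 for B and 10 for T and NK lymphocytes), with upper limits for markers of other lineages. The thresholds were set after looking at the markers, not at the members, and Ifitm1 was left out of the stem markers. Doublets were not called. The members and lists were chosen with earlier results of these data known.

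UMIs were summed per library and gate and tested with edgeR 4.0.16 (glmQLFit and glmQLFTest, TMM, filterByExpr; R 4.3.3) over all genes that passed the filter; DESeq2 1.42.0 was an alternative, beside no filter, cells with at least 2000 UMIs, thresholds raised 2-fold, leaving out each library and the replicate number as a block. Other steps used Python 3.11.15, NumPy 2.4.6, SciPy 1.17.1 and pandas 2.3.3. The scripts were tested on simulated counts with known changes. Intervals and shares cover counting error only. Named genes were all 6 members, list genes called by genotype and, between gates, the 2 largest changes per list and direction, of which the text gives a selection, and the 3 most alike genes per member.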

Additional observations from a re-analysis of the deposited data

Results flagged for a closer look

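The genotype difference of Serpinb1a differed between granulocyte and monocyte progenitors by −0.63 on the log2 scale in a test of the difference itself (edgeR interaction, standard error 0.15, adjusted p = 0.00801). Serpinb1a was lower in TLR9-/- granulocyte progenitors (−0.23, adjusted p = 0.705) and higher in TLR9-/- monocyte progenitors (0.38, adjusted p = 0.513), and neither of these passed by itself. The call was lost in 4 of the alternatives tried (adjusted p = 1.00 with DESeq2, 0.368 with stricter gates, 0.275 without TLR9-/- 1 and 0.604 without WT 2).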

How the results depend on the processing

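Of 617 values recomputed under alternatives, 569 were counted as unchanged. Among the 617 were 171 member counts and means, of which 153 were unchanged. A mean level in lymphocytes counted as unchanged if T and NK lymphocytes lay within the SD of the B lymphocyte libraries. Shares of cells did so if the genotype difference kept its sign. Of the 446 single member values, 416 kept their direction and their side of the threshold, and of the 324 of these between gates, 320. Most single values that changed were thus those of genotype and of the interactions. For TLR9-/- against WT, 0 members were called in the main analysis of every gate. Without a filter on low counts, 1 member passed in stem and multipotent progenitors (Mpo, 0.75, adjusted p = 0.0440 by edgeR) and 3 over all cells (Mpo, Prtn3 and Ctsg). DESeq2 also called 3 over all cells. With each library left out, 0 to 1 members passed in immature neutrophils (Ctsg) and 0 to 4 and 0 to 1 in the interactions of granulocyte with stem and multipotent and with monocyte progenitors. For the first interaction, 1 member passed with no filter (Mpo, −0.45) and 1 with stricter gates (Mpo, −1.08), and for the second, 0 passed with DESeq2 and 0 with stricter gates. Between gates, Serpinb1a in monocyte against stem and multipotent progenitors was lost with DESeq2 (adjusted p = 0.120), with no filter (−0.18, adjusted p = 0.173 by edgeR) and without WT 1, and Srgn in mature against immature neutrophils with cells of at least 2000 UMIs. The cut at 2000 UMIs left 5 to 156 mature neutrophils per library. The cause of these changes was not tested.

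The direction reversed 4 times, each without a call: without TLR9-/- 2 for Mpo in granulocyte progenitors (−0.00601 to 0.492 over the libraries left out), Ctsg in immature neutrophils (−0.621 to 1.64) and Serpinb1a over all cells (−0.0769 to 0.625), and without WT 2 for the Mpo interaction of granulocyte with stem and multipotent progenitors (−0.958 to 0.0671). In T and NK in place of B lymphocytes, the mean level was 0.450 UMIs per 10000 for Prtn3, 0.173 for Serpinb1a and 6.79 for Srgn.

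The labels do not say that the replicate numbers mark the 2 experiments. Deviations of same-numbered libraries correlated by −0.09 in mature neutrophils and by 0.11 to 0.32 elsewhere, over 2 pairs. With the replicate number as a block, 1 member passed in monocyte progenitors (Mpo, 0.52, adjusted p = 0.0325 by edgeR), 1 in immature neutrophils (Ctsg, 0.57, adjusted p = 0.0117 by edgeR) and 4 over all cells (Mpo, Elane, Prtn3 and Ctsg), and no other count changed. The shares of all genes called in the block fits are not given here, so these member counts cannot be set against them. The interaction alternatives were chosen after seeing the data. Depth was limited in mature neutrophils (152001 to 983781 UMIs per gate and library), T and NK lymphocytes (274153 to 1499644) and stem and multipotent progenitors (307159 to 1479715).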
